A study of Danio rerio with 2 samples.

Results

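CpG island regions away from gene starts were accessible regions that overlapped at least 1 annotated CpG island and lay more than 1000 bp from every gene start assigned to them, or had no gene assigned at all. They were picked from the merged ATAC-seq regions of hearts by these annotation columns alone, so no accessibility value entered the choice. There were 1013 such regions among 41473 regions, or 2.44%, and they made up 23.1% of the 4382 regions that held an island. The remaining 3369 island regions lay within 1000 bp of a gene start and are called island promoters here. A further 25766 regions were as far from gene starts but held no island and are called distal regions without island.

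ATAC-seq inserts sequencing adapters into open chromatin with a transposase, so that pileup of fragments measures how accessible a stretch of DNA is. Hearts were dissected from zebrafish of the *hos* (heart of stone)/Tg(myl7:GFP) line at 96 h post fertilization, where the *myl7* promoter drives GFP in heart muscle cells of both genotypes. One library came from *hos* mutants and 1 from siblings, whose genotype label reads wild type. The protocol names 60 hearts, without saying whether this number was per genotype, and the title of the series ties the line to *smarce1*, which encodes a component of SWI/SNF, an ATP-dependent chromatin remodeler. Each library is therefore a pool of hearts, there is no replicate of either genotype, and no difference between them could be tested. The cell type label reads cardiomyocytes, but whole hearts were taken, and these also hold endocardial, epicardial and other cells.

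CpG islands are stretches of DNA dense in CpG dinucleotides that mostly stay free of DNA methylation. In vertebrates they typically sit at the starts of housekeeping and developmental genes, where they keep chromatin open. Islands found away from annotated starts are known as orphan islands. Many of them work as alternative or unannotated promoters, and others lie in the bodies of developmental genes or at enhancers, where Polycomb complexes and the SWI/SNF complex act in opposition. The files give 1 start per gene, so alternative starts were not considered, and the source of the island annotation is not given in the sources used here. Exons, introns and untranslated regions were not used here.

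In both libraries together the regions held 4748101 estimated tags in the mutant and 4091458 in the sibling, a ratio of 1.16 that applied to the whole table and that cannot be told apart from a difference in depth. The start region of *smarce1* had an average signal of 106 in the mutant and 87.3 in the sibling, a log2 ratio of 0.28, and this region does not check the genotype labels. A region at the start was found for 9 of 13 cardiomyocyte markers, with a summed average signal of 655 in the mutant and 380 in the sibling. The sums were 166 in the mutant and 131 in the sibling for 3 of 7 endocardial and endothelial markers, and 81.3 in the mutant and 106 in the sibling for 3 of 5 epicardial markers. They were 73.0 in the mutant and 85.3 in the sibling for 3 of 5 skeletal muscle markers, where *mylpfa* and *tnnt3b* had log2 ratios of -2.35 and -1.36 and *acta1b* 0.998. The epicardial sum likewise mixed *wt1a* at 0.48 with *wt1b* at -0.87 and *tbx18* at -0.62. The sums were 230 in the mutant and 236 in the sibling for 4 of 5 markers of epidermis and liver, and 314 in the mutant and 244 in the sibling for 3 of 4 neural markers. None of the 5 blood markers had one. The marker sums therefore moved unequally between the libraries, and the part of cell composition in the values that follow was not tested. In a bulk library, fewer cells of a type and less open chromatin per cell cannot be told apart.

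The island regions away from gene starts were more accessible than other distal regions and less accessible than island promoters. Signal is the deposited mean pileup over a region. Its median over the 1013 regions was 42.0 in the mutant and 38.7 in the sibling. Distal regions without island had medians of 30.9 in the mutant and 30.8 in the sibling, and island promoters had 68.8 in the mutant and 58.4 in the sibling. The summit of the pileup followed the same order, with a median peak signal of 55 in the mutant and 52 in the sibling for islands away from starts. Their median length was 422 bp, between 319 bp for distal regions without island and 543 bp for island promoters, and 23 of them reached 1 kb. Together they covered 471.9 kb and held 3.35% of all tags in the mutant and 3.28% in the sibling.

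**Figure D1:**
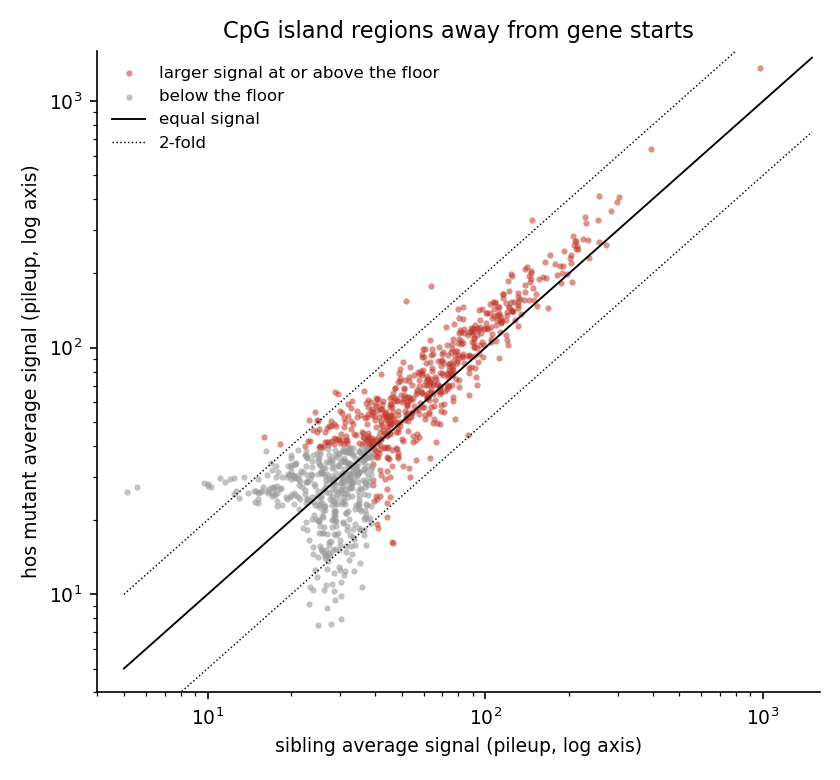
Average signal of the 1013 CpG island regions away from gene starts in the *hos* mutant library (vertical, log scale) and the sibling library (horizontal, log scale), each point 1 region, with lines of equal signal and of a 2-fold difference. Red points are the 586 regions whose larger signal was at or above 39.3, and they lie mostly a little above the line of equal signal.

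Peak calls in the 2 libraries agreed more often at these islands than at other distal regions. An interval was called in both libraries at 707 of the 1013 regions, or 69.8% (95% Wilson interval 66.9% to 72.5%), against 63.7% of all regions. The share was 51.9% in distal regions without island and 90.2% in island promoters. Part of this went with signal, since at or above the floor of 39.3 described further on it was 90.3% in islands away from starts, 85.6% in distal regions without island and 90.6% of all regions that passed. Calls in the mutant library alone made up 138 regions, or 13.6%, against 17.5% of all regions, and calls in the sibling library alone 168 regions, or 16.6%, against 18.9% of all regions. Regions called in both libraries were longer, with a median of 496 bp, and stronger, with a median signal of 56.4 in the mutant and 49.6 in the sibling. Those called only in the mutant were short and weak, with a median of 259 bp and a signal of 30.4 in the mutant and 20.7 in the sibling. Those called only in the sibling had a median of 254 bp and a signal of 19.4 in the mutant and 30.4 in the sibling. Regions called in 1 library were thus shorter than those called in both, and weaker in each library. The intervals here and elsewhere treat regions as independent and cover counting error only.

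The mutant library had slightly more signal at most of these islands, by about as much as in the whole table. Ratios are given as log2((mutant signal + 1)/(sibling signal + 1)), with no scaling between the libraries, so that a positive value means more signal in the mutant. Over all 1013 regions the median log2 ratio was 0.15 for the average signal and 0.11 for the peak signal, against 0.15 and 0.13 over all regions. Summed tags were 158843 in the mutant and 134151 in the sibling, a ratio of 1.18, against 1.101 in distal regions without island and 1.21 in island promoters.

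Weak regions carry large counting error, so ratios were also described for regions whose larger signal was at or above 39.3, the median of that value over all regions. This floor kept 586 of the 1013 regions, or 57.8%, against 35.7% of distal regions without island and 82.9% of island promoters. Of the 586, 450 reached the floor in both libraries, 93 in the mutant only and 43 in the sibling only, and for the last 2 groups a difference was built into the choice. The median log2 ratio of the 586 was 0.23 (95% interval 0.20 to 0.26), with quartiles of 0.02 and 0.44. It was 0.19 (0.18 to 0.20) in distal regions without island, 0.27 (0.25 to 0.28) in island promoters and 0.25 over all regions that passed. In the 450 regions at the floor in both libraries the median was 0.21, against 0.16 in distal regions without island and 0.25 in island promoters. The ratio was above 0 in 454 of the 586, or 77.5%, against 75.4% of all regions that passed. This direction rests on the scaling, since setting the median of all regions to 0 lowers each ratio by 0.15 and leaves the 586 at a median of 0.075, and lowess centring on signal puts it at -0.0083.

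Large differences were few, at shares close to those of all regions and between those of distal regions without island and of island promoters. Of the 586 regions, 10 had a mutant signal 2-fold or more above that of the sibling, or 1.71%, against 2.04% of all regions that passed. A further 5 were 2-fold or more below it, or 0.853%, against 1.13% of all regions that passed. Past 2-fold in either direction were 2.56% of these islands, 5.08% of distal regions without island, 0.967% of island promoters and 1.81% of promoters without island. Without the floor, 22 of the 1013 regions, or 2.17%, lay 2-fold or more above the sibling, against 3.32% of all regions, and 36, or 3.55%, 2-fold or more below it, against 4.83% of all regions. These shares are at or below the background. With the median of all regions set to 0, the split at the floor was 4 above and 8 below, and with lowess centring 6 and 6. None of the 586 differed 3-fold.

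The ratios were spread less widely than at distal regions without island, also within each of 4 groups formed by the larger signal. The islands were longer and held more estimated tags, with a median of 82 in the mutant and 76 in the sibling. Distal regions without island had a median of 43 in each library. Counting error was thus not matched, and its part in the spread was not tested. The interquartile range of the log2 ratio was 0.41 in the 586 islands, 0.60 in distal regions without island and 0.34 in island promoters. When all regions were divided by their larger signal into 4 groups of like size, it was 0.84 in islands away from starts and 0.99 in distal regions without island in the weakest group. In the next group it was 0.67 against 0.90. In the group from 39.3 to 60.4 it was 0.53 against 0.71, and in the strongest group 0.34 against 0.42. Islands away from starts also differed in where they fell among these groups, since 35.2% of them were in the strongest one, against 12.8% of distal regions without island and 59.0% of island promoters. The median ratios in the strongest group were nearly alike, at 0.26 in islands away from starts, 0.28 in distal regions without island and 0.29 in island promoters.

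**Figure D2:**
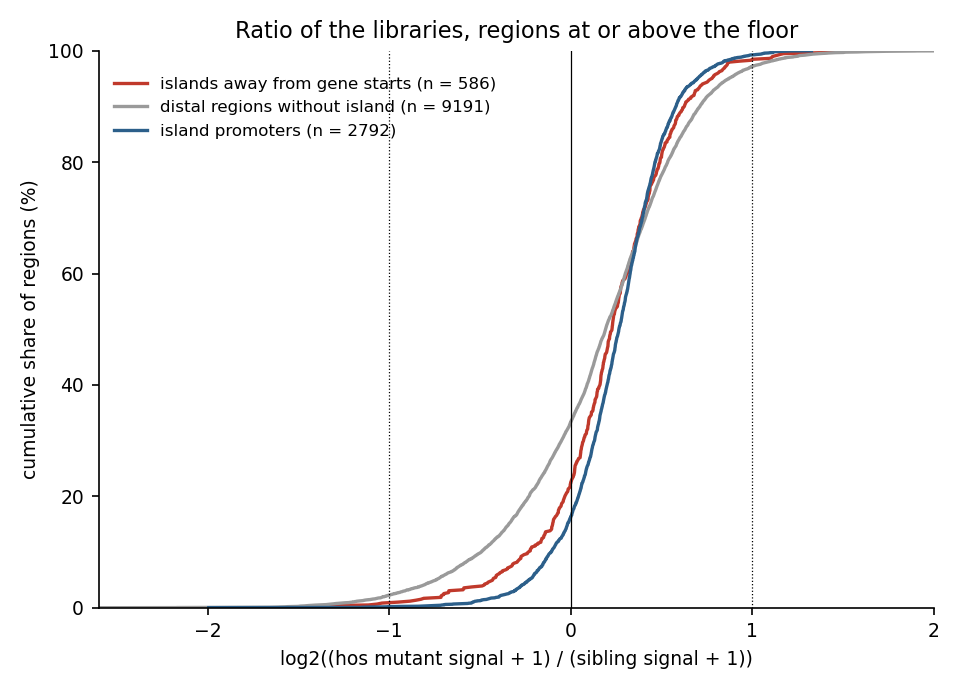
Cumulative share of regions (%) by log2 ratio of *hos* mutant over sibling signal, for regions whose larger signal was at or above 39.3: 586 islands away from gene starts, 9191 distal regions without island and 2792 island promoters. The curve of the islands away from starts rises more steeply than that of distal regions without island and less steeply than that of island promoters, and few regions lie beyond the dotted lines at a 2-fold difference.

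Most of these islands lay inside genes. The files placed 592 of the 1013, or 58.4%, in a gene, 180 upstream and 88 downstream of the nearest one, and gave no gene for 153. The 860 regions with a gene were assigned to 770 nearest genes, of which 76 had more than 1 such region. Their distance to the nearest start had a median of 7447.5 bp, with quartiles of 2178 and 29801 bp, and ran from 1003 to 985695 bp. By the RefSeq biotypes of the GRCz12tu assembly, matched by gene identifier for 799 of the 860, the nearest gene was protein-coding for 769 and a microRNA for 16.

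Inside genes the islands were weighted towards the start. The share in the first 20% of the gene's length was 37.7%, or 223 of 592, against 19.8% of distal regions without island, and the share in the last 20% was 10.98% against 14.9%. The host genes of the islands were shorter, with a median of 61.1 kb against 87.4 kb. Signal was also highest near the start. Islands in the first 20% had a median signal of 50.5 in the mutant and 43.6 in the sibling, and those in the last 20% had 33.7 in the mutant and 32.4 in the sibling. Both libraries called 71.3% of islands in the first 20% and 53.8% of those in the last 20%.

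Accessibility fell off with distance in both libraries. The 200 islands from 1 to 2 kb away had a median signal of 62.8 in the mutant and 53.8 in the sibling, and the 160 from 2 to 5 kb had 54.9 in the mutant and 48.6 in the sibling. The 137 from 5 to 10 kb had 41.0 in the mutant and 37.0 in the sibling. The 195 from 10 to 50 kb had 35.1 in each library, and the 168 farther away had 33.6 in the mutant and 32.5 in the sibling. Islands were the stronger regions in each of these bins, with distal regions without island running from 42.6 in the mutant and 37.8 in the sibling at 1 to 2 kb to 29.0 in the mutant and 29.8 in the sibling beyond 50 kb. The log2 ratio showed no matching order, with medians at or above the floor of 0.23, 0.27, 0.27, 0.16 and 0.21 from the nearest to the farthest bin.

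**Figure D3:**
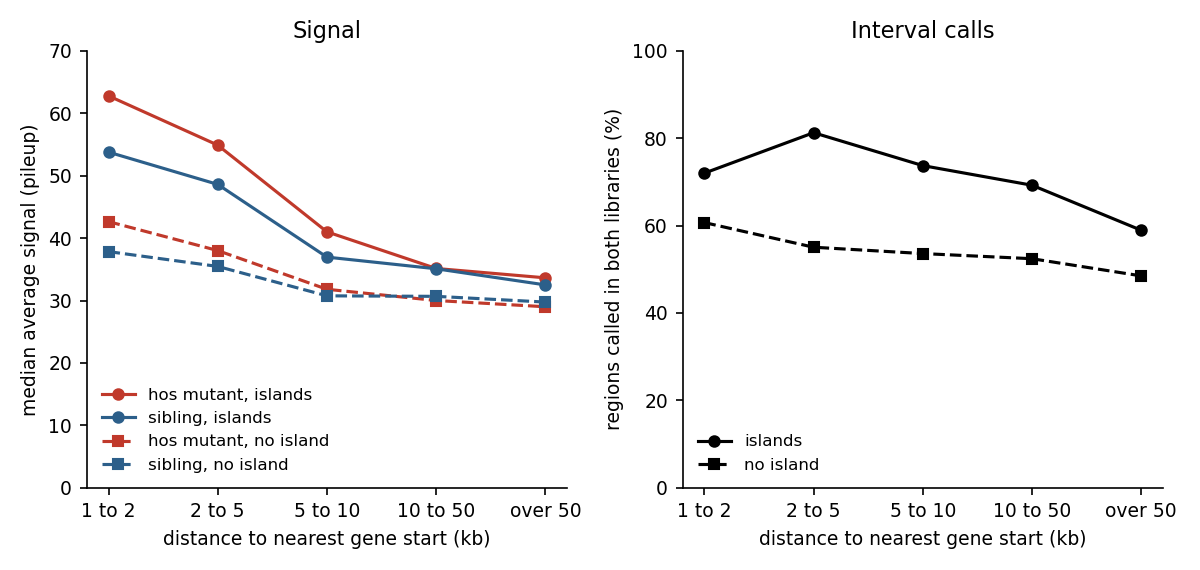
Median average signal (left) and share of regions called in both libraries (right, %) by distance to the nearest gene start (kb), for islands away from gene starts (solid, circles) and distal regions without island (dashed, squares), with the *hos* mutant in red and the sibling in blue. Signal falls with distance in both libraries, and islands lie above distal regions without island in every bin.

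Islands upstream of a gene were the strongest group by position, and also the nearest to a start. Their median distance was 3277 bp, against 12769 bp in genes and 10151 bp downstream, and the part of distance was not tested. Their median signal was 58.7 in the mutant and 49.1 in the sibling, and 83.9% were called in both libraries. Islands in genes had 41.2 in the mutant and 38.2 in the sibling, those downstream 44.4 in the mutant and 39.0 in the sibling, and those with no gene 33.2 in the mutant and 32.1 in the sibling. The median log2 ratio at or above the floor was 0.24 upstream, 0.21 in genes, 0.30 downstream and 0.18 with no gene, and the intervals of these medians overlapped. The 5 regions with a mutant signal 2-fold or more below that of the sibling were all in genes. They were 1.47% of the islands in genes at or above the floor. In distal regions without island such shares were 2.94% in genes, 1.36% upstream, 0.732% downstream and 2.08% with no gene. With 5 regions the positions of the islands cannot be set apart.

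The regions nearest to the distance limit of 1000 bp are given as values only, with 3 on each side. The closest regions outside it lay in the genes of *kcnj11*, a subunit of ATP-sensitive potassium channels, at 1003 bp, *mark4a*, a microtubule affinity-regulating kinase, at 1007 bp, and *gpr158b*, an orphan receptor, at 1008 bp. Their signals were 21.7, 53.7 and 24.8 in the mutant, against 32.1, 62.8 and 25.7 in the sibling. The closest island regions inside the limit were at 990 bp (*si:ch1073-358c10.1*), 991 bp (*zgc:66014*) and 994 bp (*prkar2aa*), with 69.8, 92.4 and 152 in the mutant and 65.8, 74.4 and 114 in the sibling.

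The 10 strongest islands next to a named gene were open in both libraries, with log2 ratios from 0.07 to 0.47. The highest lay upstream of *hlfa*, a bZIP transcription factor of the PAR family, at chr3:11627738-11628473 (danRer11, as for all positions here), 3633 bp from the start, with a signal of 407 in the mutant and 303 in the sibling. An island in *cicb*, the gene of a capicua repressor, had 389 in the mutant and 298 in the sibling, and one upstream of *mpp7a*, a polarity scaffold of the MAGUK family, had 330 in the mutant and 256 in the sibling. An island in *sertad2b* had 320 in the mutant and 230 in the sibling. All of them were somewhat higher in the mutant, with log2 ratios of 0.43, 0.38, 0.37 and 0.47.

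An island in *smarcd3b*, the gene of the SWI/SNF subunit known in mammals as BAF60c and used in heart muscle, was among these strongest regions. It lay at chr7:41468442-41469452, 21095 bp into the gene, with 283 in the mutant and 208 in the sibling, a fold of 1.36 (95% exact binomial interval on estimated tags 1.25 to 1.48). Of the other 5 of the 10 strongest, the island in *gse1* had 276 in the mutant and 224 in the sibling, that in *irs2b* 274 in the mutant and 234 in the sibling, and that in *fam222ba* 269.9 in the mutant and 211 in the sibling. The island in *ptmab* had 268 in the mutant and 256 in the sibling, and that downstream of *mis18a* 272 in the mutant and 211 in the sibling. *irs2b* encodes an insulin receptor substrate, *ptmab* prothymosin alpha, and *mis18a* a protein that loads centromeric histone. The 10 log2 ratios ran from 0.07 at *ptmab* to 0.47 at *sertad2b*, on either side of the 0.25 of all regions that passed the floor.

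Islands with the highest ratios were of moderate strength, and their sibling signal lay below the floor in 11 of the 12. The largest ratio next to a named gene was in *adarb2*, which encodes a brain-expressed member of the ADAR family of RNA-editing enzymes, at chr24:3783113-3783482 and 62433 bp from the start. Its signal was 43.3 in the mutant and 15.9 in the sibling, a fold of 2.72 (1.72 to 4.46), and an interval was called in the mutant only. An island at chr5:36514324-36514666, 1839 bp upstream of the proline tRNA gene *trnap-agg* and also assigned to *wnt11*, had 54.8 in the mutant and 24.5 in the sibling, a fold of 2.24 (1.52 to 3.44). Wnt11 is a ligand of non-canonical Wnt signaling with a known part in vertebrate heart development.

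The next of these islands lay at a Polycomb gene and at the gene of a ubiquitin ligase subunit. An island 1567 bp upstream of *bmi1b*, which encodes a subunit of Polycomb repressive complex 1, was at chr2:21171719-21171953, with 64.9 in the mutant and 29.6 in the sibling, a fold of 2.19 (1.41 to 3.47). One in *fbxw7*, the gene of the F-box protein that targets cyclin E, Myc and Notch for degradation, was at chr1:24917918-24918396, with 50.9 in the mutant and 23.2 in the sibling, a fold of 2.19 (1.55 to 3.11). One 1454 bp upstream of *col1a1a*, a chain of type I collagen, was at chr3:23219586-23219854, with 50.8 in the mutant and 24.9 in the sibling, a fold of 2.04 (1.29 to 3.26). All 3 were called in the mutant library only and passed the floor only there, so a higher mutant signal was built into their choice.

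The other 7 of the 12 highest had log2 ratios of 0.83 to 0.99. In *pcloa*, the gene of the presynaptic scaffold piccolo, the signal was 50.6 in the mutant and 24.9 in the sibling, and in *tmem260* it was 46.4 in the mutant and 23.9 in the sibling. At *tmem260* the peak signal gave a log2 ratio of only 0.07, so the difference in average signal did not extend to the peak signal. In *capn15*, a calpain-type protease gene, the values were 46.9 in the mutant and 25.3 in the sibling. Downstream of *hoxa5a* they were 58.9 in the mutant and 31.9 in the sibling, and upstream of *cd44b*, a hyaluronan receptor gene, 55.3 in the mutant and 30.0 in the sibling. In *camta1b*, a calmodulin-binding transcription activator gene, they were 66.5 in the mutant and 36.5 in the sibling. The strongest of the 12 was in *bcorl1*, the gene of a Polycomb-associated corepressor, at chr14:41409381-41410036, with 143 in the mutant and 79.9 in the sibling, a fold of 1.79 (1.52 to 2.11).

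Islands with the lowest ratios lay inside genes in 10 of the 12, and 11 of the 12 passed the floor only through the sibling. Of all 860 islands with a gene, 592 lay inside one. The lowest was in *atp1a3b*, which encodes an alpha subunit of the sodium-potassium pump, at chr16:10778520-10778751 and 1947 bp from the start. Its signal was 16.1 in the mutant and 46.4 in the sibling, a fold of 0.35 (0.19 to 0.63). An island in *foxn2a*, a forkhead transcription factor gene, at chr13:48526992-48527366 and 44721 bp from the start, had 16.2 in the mutant and 46.1 in the sibling, a fold of 0.35 (0.22 to 0.55). In *gabbr2*, the gene of a GABA-B receptor subunit, the values were 20.6 in the mutant and 44.3 in the sibling, a fold of 0.47 (0.30 to 0.71). In *oxr1a*, an oxidation resistance gene, they were 19.3 in the mutant and 40.7 in the sibling, a fold of 0.47 (0.27 to 0.85). Each of these 4 was called in the sibling library only.

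An island at the 3′ side of *egr1* had the highest sibling signal of this group. *egr1* encodes an immediate-early zinc finger transcription factor, and the island lay at chr14:21333879-21334158, 1943 bp from the start of a gene 2.24 kb long. Its signal was 44.4 in the mutant and 86.9 in the sibling, a fold of 0.51 (0.36 to 0.71). An island 7720 bp downstream of *mir221* and also assigned to *mir222*, a microRNA pair studied in blood vessels, had 29.9 in the mutant and 53.7 in the sibling, and one in *fam110b* had 35.6 in the mutant and 63.2 in the sibling.

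The rest of the 12 lowest ran from a log2 ratio of -0.89 to -0.70. Islands in *rerea*, an atrophin-family corepressor gene, and in *gse1* had 23.5 and 24.8 in the mutant, against 44.4 and 45.6 in the sibling. One in *tjp2b*, the gene of a tight junction scaffold, had 25 in the mutant and 41.6 in the sibling, and one in *ttc7a* had 24.0 in the mutant and 39.6 in the sibling. One 8175 bp upstream of *sox6*, a transcription factor gene of muscle and cartilage, had 24.4 in the mutant and 40.7 in the sibling. In *gse1* the weak island, 152947 bp from the start, was thus lower in the mutant while the strong one described above, at 264249 bp, was not.

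**Figure D4:**
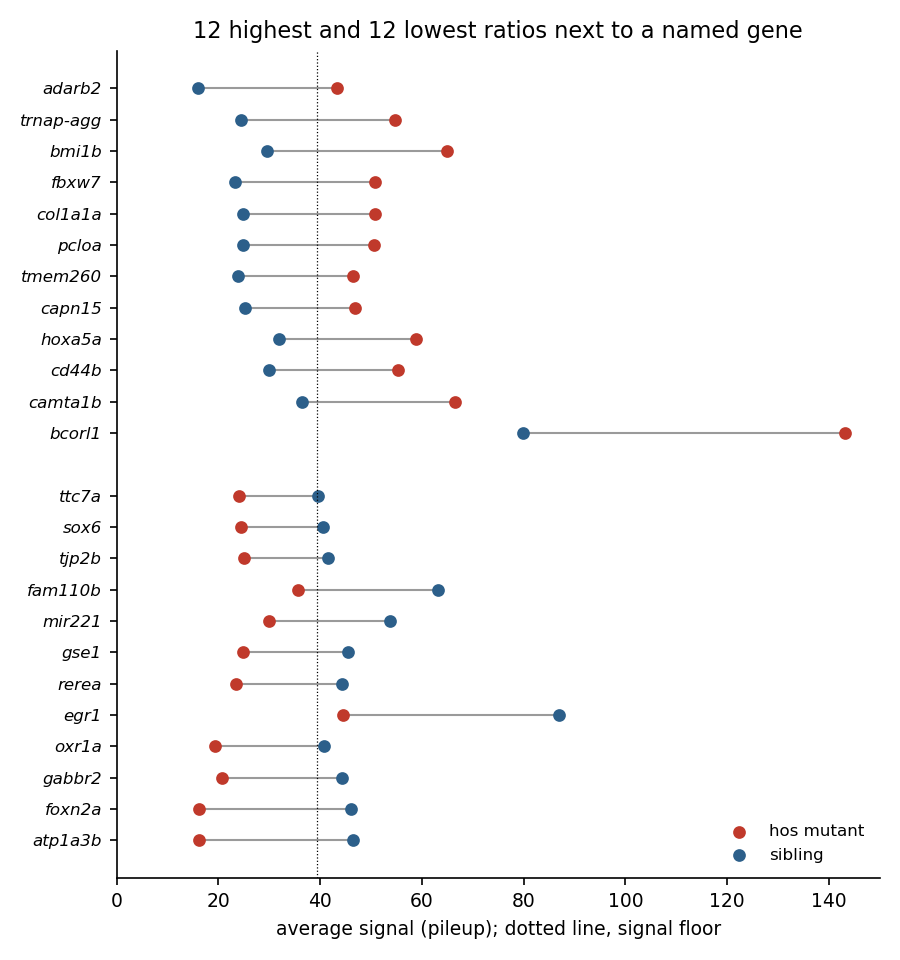
Average signal in the *hos* mutant (red) and sibling (blue) libraries at the 12 islands with the highest and the 12 with the lowest log2 ratio among those at or above the floor next to a named gene, with the floor of 39.3 as a dotted line. All pairs straddle the floor but *bcorl1* (143 in the mutant and 79.9 in the sibling), in the upper group, and *egr1* (44.4 in the mutant and 86.9 in the sibling), in the lower.

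The longest and the farthest islands next to named genes differed widely in signal. Among the longest, all upwards of 1 kb, were islands in *sp3b*, an Sp-family transcription factor gene, and in *bicral*, whose human counterpart is a subunit of a SWI/SNF complex. Their signals were 219 and 153 in the mutant, against 178 and 107 in the sibling. The 3 farthest were in *rbfox3a*, a neuronal splicing factor gene, 571781 bp from its start, in *cfap61* at 556488 bp and in *camta1b* at 523459 bp, the island among the 12 highest ratios with a fold of 1.82 (1.45 to 2.30). The *rbfox3a* island had 14.0 in the mutant and 26.4 in the sibling and the *cfap61* island 25.7 in the mutant and 17.8 in the sibling, and both folds had intervals that included 1.

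The ratio of an island differed from that of its own gene's promoter only slightly at the median. Of the 860 regions with a gene, 526 had a separate promoter region of that gene, and the promoter overlapped an island itself in 219 of these. The promoter was usually the stronger, with a median of 64.5 in the mutant and 51.7 in the sibling, against 46.2 in the mutant and 42.0 in the sibling for the island away from the start, and the island was the stronger in 185, or 35.2%. Both regions passed the floor for 283 islands. There the log2 ratio of the island minus that of the promoter had a median of -0.10 (95% interval -0.16 to -0.03). Its quartiles were -0.37 and 0.17, and the island's ratio was the lower in 168, or 59.4%. Among 4668 distal regions without island set against their gene's promoter in the same way, the median was -0.14 and 61.0% were lower. A lower ratio than at the promoter was thus not particular to the islands.

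A few genes had an island that was lower in the mutant beside a promoter that was not. The island's log2 ratio was lower by at least 1 in 8 of the 283 and higher by at least 1 in 1, or 2.83% and 0.353%. Among 4668 distal regions without island compared with their gene's promoter in the same way, these shares were 7.54% and 1.78%. Of the 8 islands, 5 passed the floor only through the sibling, where they were high, so the split was partly built into the choice. These 5 were in *atp1a3b*, *foxn2a*, *fam110b*, *ttc7a* and *rerea*. Among the 232 islands at the floor in both libraries, 3 were lower by at least 1 and 0 were higher by as much. Of 2601 distal regions without island on the same basis, 41 were lower and 13 higher by as much. The counts of the islands are too small to set them apart. The promoter of *atp1a3b* had 171 in the mutant and 144 in the sibling, that of *foxn2a* 87.2 in the mutant and 77.0 in the sibling, and that of *egr1* 170 in the mutant and 155 in the sibling. At *fam110b* the promoter went the other way from the island, with 75.8 in the mutant and 44.1 in the sibling. At *ttc7a* it had 40.9 in the mutant and 25.8 in the sibling, and at *rerea* 122 in the mutant and 98.5 in the sibling. The remaining genes of the 8 were *tox2*, an HMG-box gene, and *bcor*, a BCL6 corepressor gene of a Polycomb complex. The *bcor* island had 41.4 in the mutant and 66.5 in the sibling, and the promoter 163 in the mutant and 121 in the sibling. A further comparison was with the median ratio of distal regions without island assigned to the same gene, all at or above the floor. There 241 islands had a median difference of 0.08 with an interval of -0.02 to 0.13, which includes 0.

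**Figure D5:**
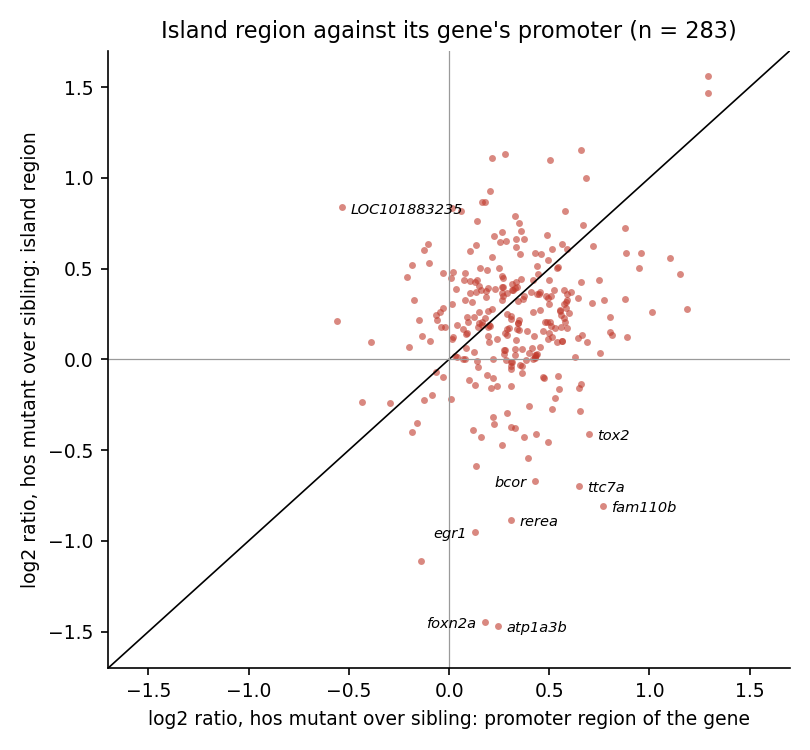
Log2 ratio of *hos* mutant over sibling signal at the island away from the start (vertical) and at the promoter region of the same gene (horizontal) for the 283 islands where both passed the floor, with the line of equal ratios. The points scatter widely around the line, and the labelled genes are the 8 whose island lies lower by at least 1 and the 1 whose island lies higher by at least 1.

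Several genes carried 3 or more of these islands, and their ratios are given as values. Many of these islands were weak, and the part of counting error in the spread within a gene was not tested. *rerea*, *fbrsl1* and *bcor* had 4 each. In *bcor* the log2 ratios were 0.02, 0.01, 0.01 and -0.67, with signals of 41.4 to 105 in the mutant and 66.5 to 105 in the sibling. In *rerea* they were 0.22, -0.89, -0.02 and -0.05. In *fbrsl1*, a gene related to *AUTS2*, they were -0.01, -0.33, 0.55 and -0.27. Fold intervals excluded 1 at the *bcor* island with -0.67 (0.43 to 0.91) and the *fbrsl1* island with 0.55 (1.18 to 1.85). They also did so at the *rerea* islands with 0.22 (1.01 to 1.35) and -0.89 (0.34 to 0.80). At the other islands of these genes the intervals included 1. The libraries were not scaled, and the tag ratio of the whole table was 1.16, so a fold of 1 is not the level of the table. The *rerea* island with 0.22 had a fold of 1.17, close to that level. Whether an interval held 1 therefore does not sort these islands. The *fbxw7* island described above was picked for its high ratio and passed the floor only through the mutant. It had a neighbour less than 1 kb away in the gene with a ratio of 0.21, and *fbxw7* had a further island with 0.09. The fold intervals of both overlapped that of the picked island, and a difference between the 3 islands was not tested. In *tshz3b*, a teashirt zinc finger gene, the ratios were 0.98, 0.27 and 0.33, the first at a weak island with 25.5 in the mutant and 12.4 in the sibling. Upstream of *mir7a-3* they were -0.08, 0.06 and -0.04, at signals of up to 182 in the mutant and 187 in the sibling.

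Developmental transcription factor genes were the largest of 5 gene lists defined by the start of the symbol. They were next to 47 of the 860 islands with a gene, or 5.47%, against 3.33% of distal regions without island with a gene. Over all 47 the median log2 ratio was 0.21, with 29 above 0, 1 past 2-fold in the mutant's favour and 2 past it in the sibling's. Over all regions the same shares were 62%, 3.32% and 4.83%, and those of the list were close to or below them. The islands named here are the extremes of the list and some cardiac genes chosen after their values were seen. An island in *hoxb8a* had 10.7 in the mutant and 36.0 in the sibling, a fold of 0.30 (0.16 to 0.56), below the floor in both. One in *runx2b*, a bone transcription factor gene, had 29.9 in the mutant and 13.6 in the sibling, also below the floor. Of the 21 that passed the floor, *hoxa5a* had the highest ratio and *foxn2a* the lowest.

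Islands at 5 transcription factor genes with a known part in heart development, chosen after their values were seen, had log2 ratios from -0.06 to 0.62. One in *gata6* had 52.8 in the mutant and 44.9 in the sibling, a log2 ratio of 0.23. One upstream of *tbx5a* had 36.1 in the mutant and 37.7 in the sibling, a log2 ratio of -0.06. One in *mef2ca* had 44.7 in the mutant and 33.8 in the sibling, and one in *mef2cb* had 34.9 in the mutant and 30.1 in the sibling. Upstream of *klf2a*, a flow-responsive endocardial gene, the signal was 39.9 in the mutant and 25.5 in the sibling, with a log2 ratio of 0.62. None of the 5 reached a 2-fold difference, which says little beside the 3.32% above and 4.83% below over all regions. Those at *tbx5a* and *mef2cb* were below the floor, and those at *mef2ca* and *klf2a* passed it only through the mutant. Over the whole list of 47 islands, 29 had a ratio above 0 and 18 below. Among the 18 was one in *pbx4*, with 54.7 in the mutant and 71.2 in the sibling, a log2 ratio of -0.38.

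Signaling genes were next to 17 islands, or 1.98%, against 3.68% of distal regions without island. None was 2-fold different, while 3.32% of all regions lay 2-fold or more above the sibling and 4.83% below it. With 17 islands a count of 0 says little beside these shares. The 11 at or above the floor had a median log2 ratio of 0.24. The highest of these was in *raraa*, a retinoic acid receptor gene, with 138 in the mutant and 100.9 in the sibling, and the lowest in *fgfr3*, a fibroblast growth factor receptor gene, with 49.6 in the mutant and 67.0 in the sibling. An island 4632 bp upstream of *stat5a*, a transcription factor of Jak/Stat signaling, had 115 in the mutant and 96.4 in the sibling. The gene *igf2bp1*, an RNA-binding protein, entered this list only through the start of its symbol, with 189 in the mutant and 146 in the sibling.

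Ion channel and synapse genes were next to 31 islands, or 3.60%, against 2.72% of distal regions without island. None of the 31 was 2-fold different, against 3.32% of all regions above the sibling by as much and 4.83% below it. This count is too small to set the list apart. The 12 at or above the floor had a median of 0.22. The highest was upstream of *pcdh7a*, a protocadherin gene, with 75.5 in the mutant and 49.2 in the sibling, and the lowest upstream of *scn1lab*, a sodium channel gene, with 49.1 in the mutant and 68.7 in the sibling. A further island of *scn1lab*, in the gene, went the other way, with 33.3 in the mutant and 19.5 in the sibling. That island was below the floor in both libraries and called in the mutant only.

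Chromatin and transcription genes were next to 14 islands, or 1.63%, against 1.66% of distal regions without island. These were strong regions, and 13 of the 14 passed the floor, with a median log2 ratio of 0.39, against 0.34 at island promoters of the list and 0.15 at distal regions without island of the list. None of the 14 was 2-fold different, which says little beside the 3.32% above and 4.83% below over all regions. The highest was in *kdm5bb*, a histone H3K4 demethylase gene, with 48.0 in the mutant and 27.4 in the sibling. Both islands in its paralog *kdm5ba* had 60.2 and 59.6 in the mutant and 38.9 and 37.3 in the sibling. The *kdm5bb* and *kdm5ba* islands passed the floor only through the mutant, so a higher mutant signal was built into their choice. The lowest at the floor was in *hmga1b*, an architectural chromatin protein gene, with 66.8 in the mutant and 68.7 in the sibling. An island in *kdm6al*, an H3K27 demethylase gene, had 202 in the mutant and 146 in the sibling.

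Muscle and heart genes were next to 5 islands, or 0.581%, against 0.638% of distal regions without island, and those at *actn4* and *actr10* are not specific to muscle and entered by the start of the symbol. The island in *tpm1*, the cardiac tropomyosin gene, at chr25:33201890-33202697 and 9507 bp from the start, had 84.1 in the mutant and 69.2 in the sibling, a fold of 1.22 (1.03 to 1.44). Of the 2 islands in *mylk4b*, a myosin light chain kinase gene, 1 had 40.2 in the mutant and 27.1 in the sibling and the other 28.4 in the mutant and 32.8 in the sibling. *tpm1* and the stronger *mylk4b* island had log2 ratios of 0.28 and 0.55. That *mylk4b* island passed the floor only through the mutant, and its peak signal gave a log2 ratio of 0.26. The rest of the list had 0.32 at *actn4*, -0.20 at the weaker *mylk4b* island and -0.35 at *actr10*.

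Islands away from starts were next to small RNA and Hox genes more often than distal regions without island. A microRNA gene was assigned to 19 of the 1013, or 1.88%, against 0.671%, a tRNA gene to 11, or 1.09%, against 0.427%, and a Hox gene to 6, or 0.592%, against 0.0815%. Some of these genes form clusters, so that the regions share neighbours. Near *mir9-1*, a neural microRNA gene, an island had 103 in the mutant and 76.1 in the sibling, and near *mir130c-1* one had 239 in the mutant and 171 in the sibling. In the hoxba cluster, 4 islands nearest to *hoxb8a*, *mir10c* and *hoxb2a* had log2 ratios of -1.66, -0.49, -0.10 and 0.06, all below or just above the floor.

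Islands with no gene assigned included a group at the very start of chromosome 7. The 3 strongest of the 153 lay at chr7:5595-5974, chr7:3147-3523 and chr7:5067-5401, with 638, 414 and 340 in the mutant and 396, 258 and 229 in the sibling. Their folds were 1.61 (1.46 to 1.78), 1.61 (1.42 to 1.81) and 1.49 (1.29 to 1.71). A further island nearby, at chr7:2071-2370 and chosen after its values were seen, had 144 in the mutant and 168 in the sibling. Repeats are common near chromosome ends, and how reads with several matches were handled is not given in the sources used here.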

How the data were processed

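ATAC-seq libraries of *hos* mutant and sibling hearts at 96 h post fertilization were compared, 1 per genotype, grouped by the genotype labels. Per the submitters' processing notes, peaks were called with MACS2 2.1.0 on danRer11. How reads were aligned, how duplicates and reads with several matches were handled, whether reads were shifted for the transposase and how libraries were scaled is not given in the sources used here. Intervals of both libraries were merged by the authors, who deposited, per region and library, an average and a peak signal (pileup) and a mark for a called interval, with gene and CpG island annotation. The deposited log2 ratios and shrunken fold changes of the authors, and the 2 columns of mean peak signal per gene, were not used. Positions are printed as in the files.

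Log2((mutant signal + 1)/(sibling signal + 1)) was computed with a pseudocount of 1 and no scaling. A signal floor of 39.3, the median over all regions of the larger signal, was applied where stated. Tags were estimated as average signal times length divided by 224, the ratio the deposited largest tag count implies. Folds of signals carry exact binomial 95% intervals on these tags, medians order-statistic intervals and shares Wilson intervals, all for counting error only. With 1 library per genotype no test was run. The scripts were tested on simulated data. A gene's promoter was its nearest region within 1000 bp of the start.

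Regions were named by rule next to genes whose symbol is not a placeholder: the 12 highest and 12 lowest ratios at or above the floor, the 10 strongest, the 3 longest, the 3 farthest, 3 on either side of the distance limit, the extremes of 5 gene lists defined by symbol start, and the 3 strongest with no gene. Of the 3 longest, 1 is not reported here. The regions and lists were chosen with earlier results of these data known. No sequences were read, and GC content and motifs were not analysed here. Alternatives were another centring (median, or lowess with a span of 0.2), peak signal, pseudocounts of 0.1 and 5, other floors, distances and fold limits, exactly 1 island and calls in both libraries. The analysis ran in Python 3.11.15 with scipy 1.17.1 for intervals, statsmodels 0.14.6 for lowess, pandas 2.3.3 and numpy 2.4.6 for tables and matplotlib 3.10.9 for figures.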

Additional observations from a re-analysis of the deposited data

How the results depend on the processing

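The median log2 ratio of the islands away from gene starts was 0.23 with the values as deposited and followed the scaling between libraries, which is not given in the sources used here. It was 0.075 with the median of all regions set to 0, -0.0083 with lowess centring and 0.15 with no floor. The count of islands 2-fold or more above the sibling, 10, became 4 with median centring, 6 with lowess centring, 22 with no floor, 5 with the floor at the 75th percentile, 6 with starts over 2000 bp away, 4 with starts over 5000 bp away and 4 among islands called in both libraries. The count below it, 5, became 8 with median centring, 2 with a pseudocount of 5, 36 with no floor, 0 with the higher floor and 0 among islands called in both libraries. A fold limit of 1.5 gave 72 above and 21 below, and a limit of 3 gave 0 and 0. With islands inside genes left out, an alternative chosen after seeing the data, 4 were above and 0 below. Without chromosome 4, also chosen after seeing the data, 7 were above and 5 below.

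The median difference from distal regions without island, 0.04, was 0.10 with no floor and -0.025 with the floor at the 75th percentile, so its direction was not stable, and that from island promoters, -0.04, was -0.093 with no floor. The share called in both libraries was 66.3% for starts over 5000 bp away and 90.3% at or above the floor. The difference from the gene's own promoter stayed between -0.11 and -0.10 under the 5 alternatives run on it. Of the 53 named regions, 1 changed sign with median centring and 2 with lowess centring, and none with the peak signal or another pseudocount. The size of the ratios was less stable. With median centring, the ratios at *fbxw7*, *bmi1b*, *trnap-agg* and *col1a1a* fell below 2-fold, to log2 values of 0.95, 0.95, 0.98 and 0.85. Those at *egr1*, *rerea*, *rbfox3a* and the weaker *gse1* island passed 2-fold below the sibling, at -1.11, -1.04, -1.02 and -1.01. With lowess centring the log2 ratios of the 10 strongest ran from -0.23 to 0.17, in place of 0.07 to 0.47. Fewer regions remain under a higher floor or a longer distance, and the cause of the other changes was not tested. No paired analysis was possible because there was 1 library per genotype. The count of estimated tags limits the precision of each island's fold.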

Other observations

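Some of the largest values lay next to genes with placeholder symbols, which the rule for named regions leaves out, so they were chosen after their values were seen. A pair of islands in *LOC110438638* on chromosome 4, at chr4:77557951-77560685 and chr4:77560882-77561477, had 177 and 154 in the mutant, against 63.5 and 51.6 in the sibling, with log2 ratios of 1.47 and 1.56. The promoter region of the same gene was also higher, with 138 in the mutant and 55.6 in the sibling, and the longer of both islands, at 2734 bp, was the longest island away from a gene start. Other chosen islands of chromosome 4 were an island in *LOC101882320*, with 65.9 in the mutant and 28.7 in the sibling, and one upstream of *LOC110439372*. The latter had 196 in the mutant and 125 in the sibling. Of the 36 islands of chromosome 4, 25 passed the floor. Of these, 3, all named here, were 2-fold or more above the sibling, against 2.04% of all regions that passed. They were the neighbouring pair in *LOC110438638* and the island in *LOC101882320*, and the count is too small to set the chromosome apart. The median log2 ratio of the 25 was 0.40, against 0.27 over all regions of the chromosome that passed.

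An island at chr5:824731-825332 in *zgc:158463*, which RefSeq of the GRCz12tu assembly lists as a ribosomal RNA gene, had 330 in the mutant and 148 in the sibling, a fold of 2.23 (1.98 to 2.51). The most accessible island of all lay 9980 bp downstream of *LOC101884319*, at chr17:53383402-53383933, with 1366 in the mutant and 972 in the sibling, a fold of 1.41 (1.33 to 1.48). Among islands at or above the floor, 4 of 107 next to a placeholder symbol and 5 of 414 next to a named gene had a mutant signal 2-fold or more above that of the sibling, or 3.74% and 1.21%, against 2.04% of all regions, and these counts are too small to set the groups apart. How repeated sequence was treated in the alignment is not given in the sources used here, and its part in these values was not tested.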
